A study of Mus musculus with 8 samples.

Results

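The synaptotagmins and the proteins that dock, prime and fuse synaptic vesicles were followed as a set of 43 genes, among 39017 genes in the deposited count table. The members were taken by symbol, through the Ensembl identifier of each row, and grouped by role into 15 synaptotagmins, 4 other C2-domain proteins of the Doc2 and Mctp families, 9 active zone proteins, 7 SNAREs and SNARE regulators, and 8 synaptic vesicle proteins. All 43 were found, and 42 passed the filter on low counts. Syt17, the exception, had between 1 and 15 reads per library. The cells came from the cochlear nucleus, the first auditory relay of the hindbrain, of C57BL/6 mouse embryos at E18.5. They were sorted by a tdTomato reporter in the Rosa locus, switched on by Math1::Cre, so both groups carry Cre and reporter and were selected for the Math1 (Atoh1) rhombic lip lineage alone. The 4 mutant libraries also carried floxed Hoxa2 and Hoxb2 alleles (Hoxa2+/fl and Hoxb2fl/fl in the titles, whereas the design text has fl/fl for both genes), and the 4 wild type libraries carried neither. Each library was made from 30000 cells pooled from 3 littermates, with a different mother per library, and held 24789043 to 51118195 counts.

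Transmitter release begins when a docked vesicle is primed by Munc13 and RIM proteins, which also hold calcium channels close to the release site. A complex of the SNAREs syntaxin, SNAP-25 and VAMP then pulls the membranes together, complexins clamp and promote it, and NSF takes it apart afterwards. Synaptotagmins sense calcium through paired C2 domains: Syt1, Syt2 and Syt9 act in fast release and Syt7 in slow and sustained release, while several relatives, such as Syt11 and Syt13, bind no calcium. Mature auditory brainstem synapses, the calyx and endbulb of Held among them, are a classical preparation for fast release, and Syt2 is their main sensor in the adult.

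Levels are given as CPM, counts scaled by TMM to a common library total. Hoxb2 averaged 40.1 CPM in wild type libraries (SD 4.41, n = 4) and 5.02 CPM in mutant ones (SD 1.49, n = 4), and was low in every library labelled mutant. Hoxa2 averaged 43.2 CPM in wild type libraries (SD 10.99, n = 4) and 26.7 CPM in mutant ones (SD 15.7, n = 4), a difference that did not pass the test (edgeR adjusted p = 0.506). Pan-neuronal markers summed to 3221 to 4344 CPM in wild type and 3289 to 4721 CPM in mutant libraries, and Atoh1, Barhl1 and the glutamate transporter Slc17a6 were all present.

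Of the 42 members tested, Mctp1 rose in the mutant and none fell at an edgeR adjusted p below 0.05, where 0.359% of the 19494 genes tested were called and 0.144% were called higher. Positive log2 differences (log2 fold change, mutant minus wild type) were found in 34 members (81.0%, against 48.4% of all genes) and negative ones in 8. The median over the members was 0.23, beside -0.01 over all genes tested. At an unadjusted p below 0.05, 14 members (33.3%) were higher, where the share over all genes was 7.22%, and 0 members were lower, where it was 5.29%. With 1 library left out at a time, 9 to 21 members were higher and 0 lower. There were 21 without mutant 1 (10.5% of all genes), and 9 without mutant 2 (5.71%), mutant 4 (5.41%) or wild type 5 (4.23%). With 1 surrogate variable 8 were higher, beside 4.31% of all genes, and 3 lower, beside 4.36%. The libraries of both groups did not overlap for 5 members that were higher in the mutant, Mctp1, Syt7, Syt4, Rims4 and Stx1a (11.9% of those tested, against 3.23% of all genes). No member lay apart in the lower direction, against 2.94% of all genes. Among the members, 12 share exon bases with another tested gene, always on the opposite strand. In these bulk libraries fewer cells of a type and less RNA per cell cannot be told apart.

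**Figure D1:**
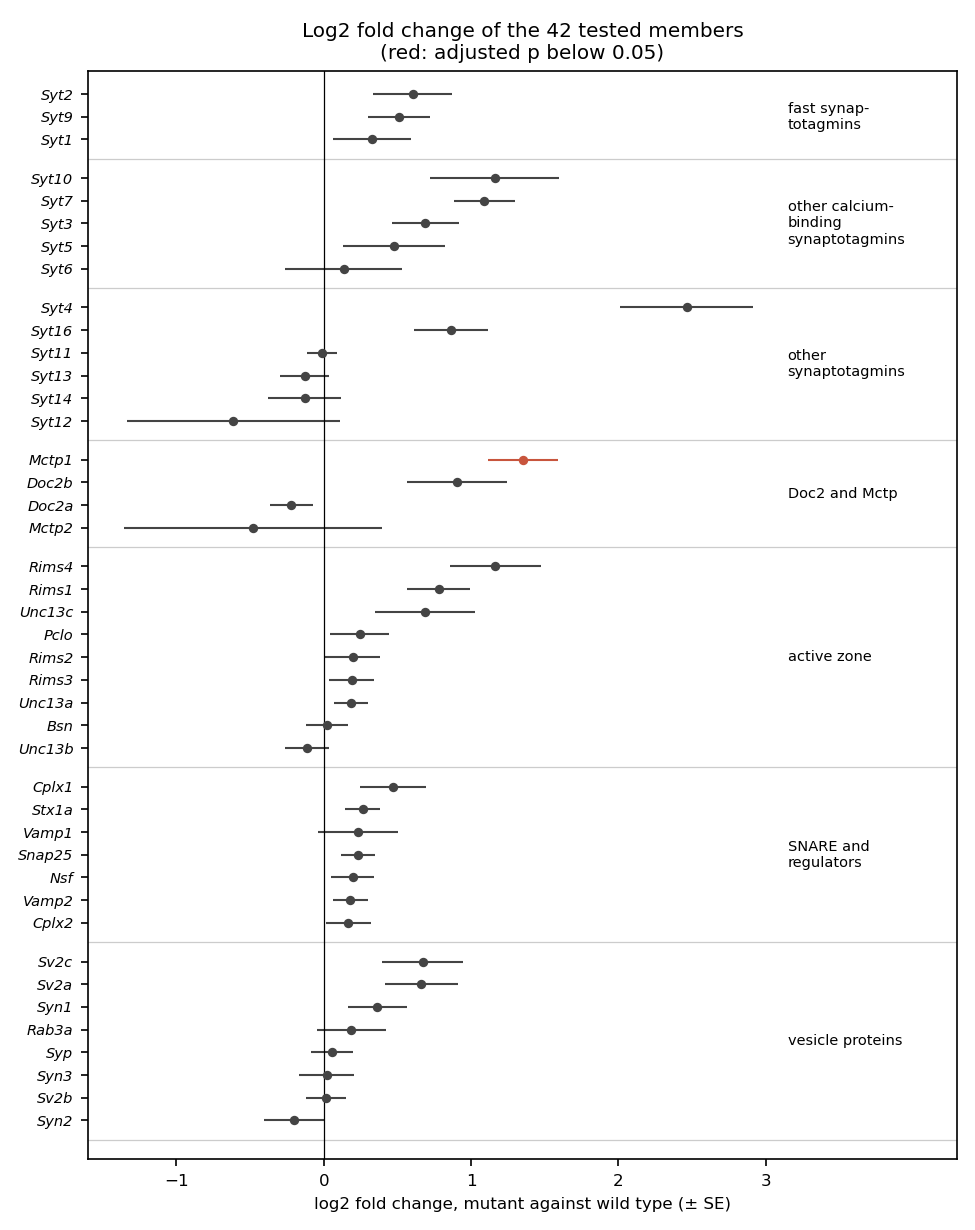
Log2 difference (mutant minus wild type, x axis) of the 42 tested members, grouped by role, with bars of 1 standard error from the edgeR fit. Mctp1 at 1.35 is the member past the threshold, while Syt4 at 2.46 has the largest difference and a wide error.

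Mctp1 (ENSMUSG00000021596, chromosome 13, 76384535 to 77031810, plus strand, mm10) encodes a calcium-binding protein with several C2 domains anchored in the membrane, whose fly relative acts in presynaptic homeostasis. It was at 29.1, 35.3, 28.6 and 27.1 CPM in mutant 1 to 4, and at 15.7, 15.3, 6.98 and 9.14 CPM in wild type 5 to 8. The lowest mutant library was thus well above the highest wild type library, and the spread was wider in wild type, where libraries 5 and 6 were high. The mean rose 2.55-fold, from 11.8 ± 4.39 to 30.0 ± 3.61 CPM (SD, n = 4 in each group), a log2 difference of 1.35 (SE 0.238, edgeR adjusted p = 0.0432). Between 244 and 1474 reads were behind these values, and no exon base was shared with another tested gene. The difference was positive in all 20 alternative fits, from 1.17 to 1.91, and it was past the threshold in 13 of them. It lost the call without mutant 2 (0.134), mutant 3 (0.141), mutant 4 (0.107) or wild type 8 (0.144), these being edgeR adjusted p-values, and narrowly with upper quartile scaling (0.0513), library size alone (0.0577) or a filter of 1 CPM in 4 libraries (0.0588). Mctp2, its only paralog, was close to the detection limit, with means of 0.367 ± 0.369 CPM (wild type) and 0.256 ± 0.251 CPM (mutant; SD, n = 4 in each group).

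RefSeq places the start site used here for Mctp1 inside the annotated gene, at position 76579597, and counts per gene cannot separate transcripts. The 250 bases before that start (chr13:76579347-76579596, plus strand) are shown for the called member, and those before the start of Rims1 (chr1:22806159-22806408, minus strand) for the other member that was called in some alternative fit, has an entry in the RefSeq promoter table (GRCm38.p6) and has no exon of its own in the window. Capitals mark matches to the motifs searched on both strands.
Mctp1: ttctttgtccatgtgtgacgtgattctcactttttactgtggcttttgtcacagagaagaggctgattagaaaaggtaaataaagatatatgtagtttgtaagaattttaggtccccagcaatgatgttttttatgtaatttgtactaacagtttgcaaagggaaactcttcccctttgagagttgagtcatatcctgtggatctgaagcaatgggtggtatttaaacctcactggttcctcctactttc
Rims1: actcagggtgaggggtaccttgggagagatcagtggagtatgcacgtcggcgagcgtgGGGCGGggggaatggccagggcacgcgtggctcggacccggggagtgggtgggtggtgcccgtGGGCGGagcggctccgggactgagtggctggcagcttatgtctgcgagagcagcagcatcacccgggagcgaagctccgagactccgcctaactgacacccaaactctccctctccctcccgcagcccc
The stretch before Mctp1 has 37.6% G and C and no match. That before Rims1 has 68.0% and holds 2 GC boxes (GGGCGG). These windows thus lie on either side of the median of 61.2% over the 39 windows found for 30 members, which itself is above the 52.4% of all 32851 windows. Among the member windows, 25 of 39 hold a GC box, against 32.74% of all windows, and 12 of 39 hold the E-box CAGCTG, against 4271 of all 32851. The Meis core TGACAG occurs in 3 of 39 (Rab3a, Sv2a and Syt1) and in 15.86% of all windows, and the Pbx-Hox letters TGATNNAT in 0 of 39 and in 7.68% of all. These are descriptions of letters in a short window.

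**Figure D2:**
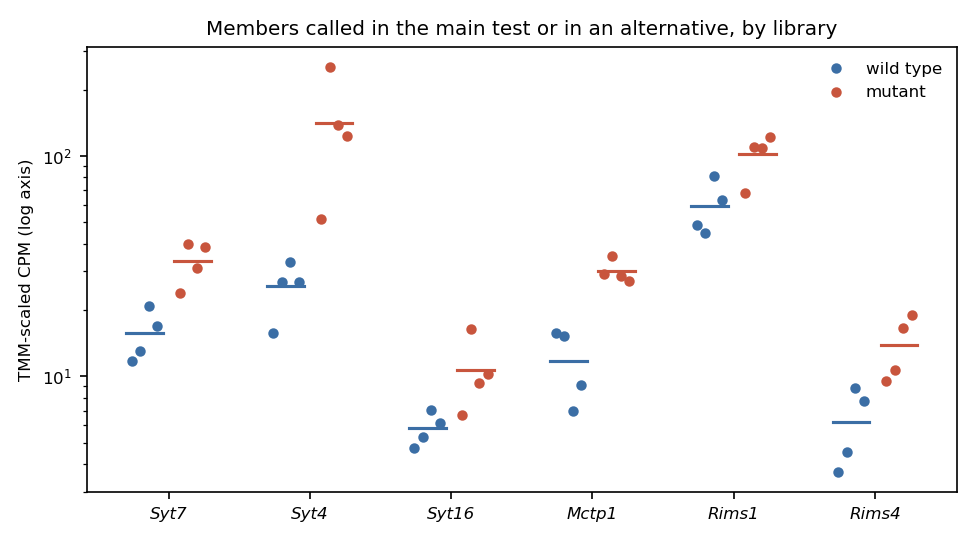
CPM by library (points) with group means (lines) for the members called in the main fit or in an alternative fit. The mutant and wild type points do not overlap for Mctp1, Syt7, Syt4 and Rims4, and mutant 1 is the lowest mutant library for Syt7, Syt4, Syt16, Rims1 and Rims4.

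The 3 fast sensors were led by Syt1, which made up 84.4% of their summed level per length in wild type and 82.0% in mutant libraries. None passed the test. Syt1 was at 144, 138, 241 and 183 CPM in wild type 5 to 8 and at 122, 277, 211 and 276 CPM in mutant 1 to 4, so the groups overlapped, and the log2 difference was 0.33 (SE 0.265, edgeR adjusted p = 0.633). Syt9 was at 12.5, 9.23, 16.9 and 14.7 CPM in wild type and at 13.1, 18.1, 23.3 and 21.6 CPM in mutant libraries, a log2 difference of 0.51 (SE 0.212, edgeR adjusted p = 0.354). Syt2, the adult sensor of auditory brainstem synapses, was the scarcest of the 3, with means of 3.58 ± 0.870 CPM (wild type) and 5.45 ± 1.77 CPM (mutant; SD, n = 4 in each group; log2 difference 0.61, edgeR adjusted p = 0.383).

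In the main fit all 5 of the other calcium-binding synaptotagmins had positive differences, with a median of 0.69. The sign turned in 5 of 20 alternative fits for Syt6 and in 1 for Syt5. None of the 5 passed the test. Syt7 (ENSMUSG00000024743, chromosome 19, 10389090 to 10453180, plus strand), the high-affinity sensor of slow release, came closest. It was at 11.7, 13.01, 21.0 and 16.96 CPM in wild type 5 to 8 and at 23.9, 39.7, 31.1 and 38.6 CPM in mutant 1 to 4. The groups were apart, by a narrow margin between wild type 7 and mutant 1. Its log2 difference was 1.09 (SE 0.208, edgeR adjusted p = 0.0560), and it passed the threshold in 9 of 20 alternative fits, with 0.00907 without mutant 1 and 0.0301 without wild type 7. With each of the other 6 libraries left out the adjusted p was above the threshold, up to 0.172. Syt7 shares 384 exon bases with the antisense gene Gm26859, which was far scarcer, with 0.647 CPM on average in wild type libraries and 0.826 CPM in mutant ones. Syt3, another high-affinity sensor, was at 6.53, 5.92, 9.98 and 10.1 CPM in wild type and at 9.72, 12.1, 17.3 and 13.4 CPM in mutant libraries (log2 difference 0.69, SE 0.225, edgeR adjusted p = 0.256). Syt10 had the same size of difference as Rims4, 1.16 (SE 0.439, edgeR adjusted p = 0.315), but at a low level and in 2 libraries: 4.22, 3.74, 1.05 and 1.27 CPM in mutant 1 to 4, beside 0.962 to 1.44 CPM in wild type. Syt5, found on dense-core and synaptic vesicles, and Syt6, known best from the sperm acrosome, had differences of 0.48 (SE 0.347) and 0.13 (SE 0.400). Syt6 was the highest of these 5 per length in wild type and also varied widely, from 32.0 CPM in wild type 6 to 110 CPM in wild type 7.

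Syt4 (ENSMUSG00000024261, chromosome 18, 31437808 to 31447406, minus strand), a synaptotagmin of dense-core and neurotrophin-carrying vesicles, had the largest difference of any member and did not pass the test. It was at 15.7, 26.8, 33.1 and 26.8 CPM in wild type 5 to 8, and at 51.9, 253, 138 and 123 CPM in mutant 1 to 4. The groups were apart, but the mutant libraries spread widely, with mutant 1 low and mutant 2 high. The log2 difference was 2.46 (SE 0.454, edgeR adjusted p = 0.0847), and the means were 25.6 ± 7.27 and 141 ± 83.2 CPM (SD, n = 4 in each group). It passed in 6 of 20 alternative fits, and without mutant 1 the log2 difference was 2.74 (edgeR adjusted p = 0.00558). With each of the other 7 libraries left out the adjusted p was 0.0985 to 0.216, and the difference was 2.03 without mutant 2. In level per length (CPM per kb of the deposited gene width), Syt4 stood 24th among the members in wild type, at 6.57 ± 1.86, and 6th in the mutant, at 36.2 ± 21.3. It shares 566 exon bases with the antisense gene Gm26658, with means of 1.51 CPM (wild type) and 5.73 CPM (mutant; log2 difference 1.93, edgeR adjusted p = 0.156). Neither labels nor table say that counting used the strand, so reads over the shared bases cannot be told apart.

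The remaining synaptotagmins lay mostly near or below 0. Syt16, which lacks calcium binding, was the exception, with 4.73, 5.33, 7.06 and 6.18 CPM in wild type and 6.65, 16.4, 9.34 and 10.2 CPM in mutant libraries (log2 difference 0.87, SE 0.253, edgeR adjusted p = 0.208). Its groups overlapped through mutant 1, without which the adjusted p was 0.0340. With each of the other 7 libraries left out it was 0.173 to 0.580, and the difference fell to 0.59 without mutant 2. Syt11, an inhibitor of vesicle retrieval that binds no calcium, was the most abundant member per length in wild type and nearly level between groups, with means of 275 ± 13.6 CPM (wild type) and 273 ± 26.0 CPM (mutant; SD, n = 4 in each group; log2 difference -0.01, SE 0.102). Syt13 and Syt14 each had a difference of -0.13, and the scarce Syt12 had -0.61 with an SE of 0.721, at 1.52 CPM in wild type 6 beside 0.0759 to 0.386 CPM in the other wild type libraries.

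Doc2b, a high-affinity sensor linked to spontaneous and asynchronous release, was at 1.18, 2.06, 0.744 and 0.987 CPM in wild type and at 1.801, 2.88, 1.73 and 2.84 CPM in mutant libraries (log2 difference 0.90, SE 0.338, edgeR adjusted p = 0.308). Only wild type 6 reached into the mutant range. Doc2a, its paralog, went the other way, at -0.22 (SE 0.146, edgeR adjusted p = 0.547). It shares 1103 exon bases with Ino80e on the opposite strand. Ino80e was more abundant, at 22.5 CPM (wild type) and 19.9 CPM (mutant), beside 10.3 and 8.83 CPM for Doc2a. Ino80e too had a negative difference (-0.18), and its part in the Doc2a counts was not tested.

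Among the 9 active zone proteins, 8 had positive differences (7 when scaled by library size alone, where Bsn turned), with a median of 0.20, and none passed the test. Over the 20 alternative fits the sign turned in 7 for Bsn and in 1 each for Pclo and Rims3. Rims1 (ENSMUSG00000041670), the scaffold that ties Rab3 vesicles and calcium channels to the release site, was at 48.8, 44.9, 80.8 and 62.9 CPM in wild type 5 to 8 and at 67.7, 110, 108 and 121 CPM in mutant 1 to 4. Mutant 1 fell within the wild type range and the other mutant libraries lay above it. The log2 difference was 0.78 (SE 0.213, edgeR adjusted p = 0.181), and 0.93 without mutant 1 (edgeR adjusted p = 0.0201). Leaving out any of the other 7 libraries gave adjusted p-values of 0.0843 to 0.504, and with 1 surrogate variable the difference was 0.39. Rims4 (ENSMUSG00000035226), a short RIM that keeps only the last C2 domain, was at 3.68, 4.56, 8.84 and 7.74 CPM in wild type and at 9.53, 10.6, 16.5 and 18.9 CPM in mutant libraries. The groups were apart by less than 1 CPM, and the log2 difference was 1.16 (SE 0.309, edgeR adjusted p = 0.164), or 1.31 without mutant 1 (edgeR adjusted p = 0.0461). Leaving out any of the other 7 libraries gave adjusted p-values of 0.103 to 0.394. Rims2 and the short Rims3 had differences of 0.20 and 0.19. Of the Munc13 priming factors, Unc13a and Unc13b had 0.18 and -0.11, and the scarcer Unc13c had 0.69 (SE 0.339, edgeR adjusted p = 0.440). The giant scaffolds Bassoon (Bsn) and Piccolo (Pclo) had 0.02 (SE 0.142) and 0.24 (SE 0.198).

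The 7 SNAREs and regulators all had positive differences in the main fit, of 0.17 to 0.47, and none passed the test. Over the 20 alternative fits the sign turned in 2 for Vamp1 and in 1 each for Cplx2 and Nsf. Stx1a, the plasma membrane SNARE, was at 20.8, 23.6, 20.1 and 23.0 CPM in wild type and at 23.8, 25.2, 30.2 and 25.7 CPM in mutant libraries. Its groups were apart by less than 1 CPM, and the log2 difference was 0.26 (SE 0.120, edgeR adjusted p = 0.395). Snap25, its partner, had 0.23 (SE 0.116), and the vesicle SNAREs Vamp1 and Vamp2 had 0.24 (SE 0.272) and 0.18 (SE 0.121). Complexins 1 and 2 (Cplx1 and Cplx2) had 0.47 (SE 0.224) and 0.17 (SE 0.152), and Nsf, the ATPase that recycles SNAREs, had 0.20 (SE 0.148).

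The 8 vesicle proteins had a median difference of 0.12, the smallest positive median of the role groups, and none passed the test. Sv2a, a vesicle glycoprotein and the target of the antiseizure drug levetiracetam, was at 43.2, 44.0, 64.6 and 59.8 CPM in wild type and at 54.4, 85.3, 128 and 67.6 CPM in mutant libraries (log2 difference 0.66, SE 0.250, edgeR adjusted p = 0.320). Sv2c, at a much lower level, had 0.67 (SE 0.276, edgeR adjusted p = 0.350), whereas Sv2b, the most abundant of the family, had 0.01 (SE 0.135). Synapsins 1 to 3, which tether vesicles to actin, had 0.36 (SE 0.199), -0.20 (SE 0.203) and 0.02 (SE 0.188). Rab3a, the vesicle GTPase bound by RIM, had 0.19 (SE 0.234), and synaptophysin (Syp), a common synapse marker, had 0.06 (SE 0.143).

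Levels were compared between members per length. In wild type the order was led by Syt11 (52.8 CPM per kb), Rab3a (50.3), Sv2b (50.1), Syn1 (34.7), Vamp2 (34.1), Snap25 (27.4), Syt1 (21.2) and Pclo (18.46), and it ended with Syt17 (0.116), Syt12 (0.101) and Mctp2 (0.0634). For all 42 neighbouring pairs in this order the wild type ranges overlapped. All members were measured in the same libraries, and ranges ignore this. Whether neighbours differ within libraries was not tested. The adult sensor Syt2 stood at 0.521 ± 0.127 CPM per kb, beside 21.2 ± 5.69 for Syt1 (SD, n = 4).

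**Figure D3:**
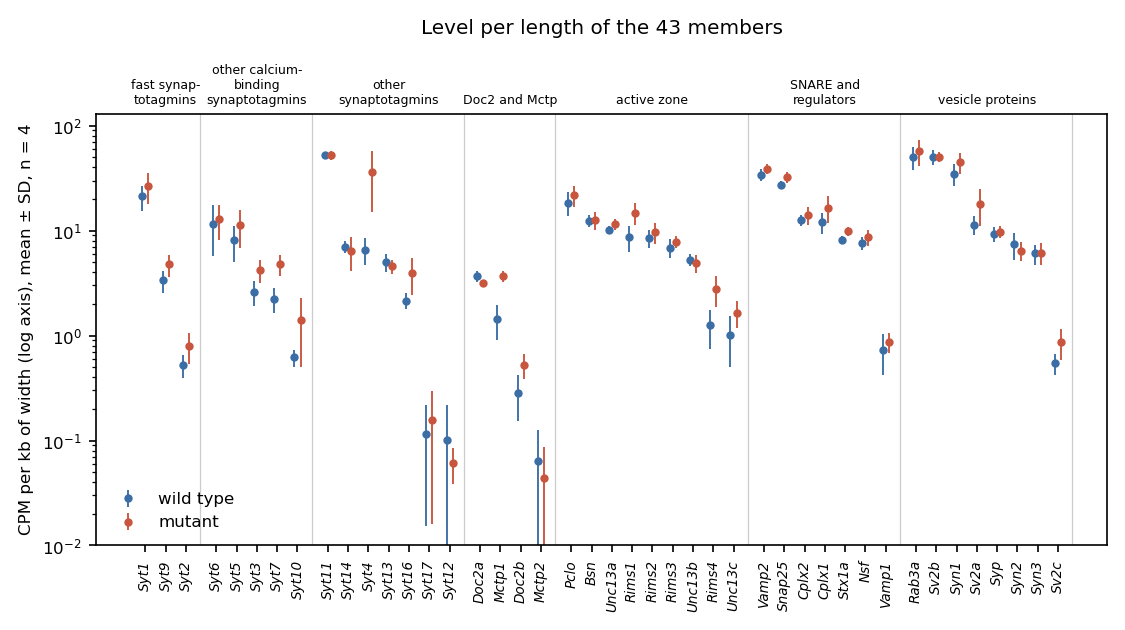
Level per length (CPM per kb of deposited gene width, log axis) of the 43 members by role, as mean ± SD over 4 wild type and 4 mutant libraries; bars that reach below the axis are cut. Syt11, Rab3a and Sv2b lead in both groups, and Syt4 moves from 6.57 to 36.2.

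Shares within families, given as a description with no test, were also computed from levels per length. Syn1 made up 70.8% to 73.6% of the synapsins in wild type and 75.9% to 80.9% in mutant libraries, and Syn2 made up 13.4% to 16.8% and 9.29% to 12.9%, so the libraries were apart for both. The Sv2a share (15.9% to 19.8% in wild type, 20.3% to 34.7% in mutant) and the Sv2b share (79.3% to 83.5% and 64.6% to 78.3%) were apart too, making 4 of the 20 shares computed. Shares in a family add up to the whole, so these 4 are not independent. Sv2c held 0.909% (wild type) and 1.27% (mutant) on average, so the Sv2a and Sv2b results are nearly the same change. Syn1 and Syn2 are tied in the same way, though less closely, as Syn3 held 12.6% and 10.8%. No background was computed for shares. For levels, 3.23% of all genes were apart and higher in the mutant, and 2.94% were apart and lower. Syn2 shares 90 exon bases with Timp4 and Syn3 shares 1733 with Timp3, both on the opposite strand. Timp4 was scarce, at 5.43 CPM (wild type) and 4.66 CPM (mutant). Timp3 was at 81.8 CPM (wild type) and 62.7 CPM (mutant), beside 74.3 and 75.4 CPM for Syn3. The part of Timp3 reads in the Syn3 level, and so in the synapsin shares, was not tested. The Rims1 share was 33.9% ± 3.11 in wild type and 41.98% ± 6.70 in mutant, and the Rims4 share 4.86% ± 1.31 and 7.92% ± 2.15 (SD, n = 4). Vamp2 held 97.9% of the Vamp1 and Vamp2 total in wild type and 97.8% in mutant libraries, an almost fixed proportion.

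A further 82 names of the release machinery were looked up, of which 78 were tested. None was called by the main edgeR test. By DESeq2, 6 were called higher and 1 (Cadps2) lower, where 2.55% of all genes were called. Without mutant 1, edgeR called 8 higher, where 2.7% of all genes were called, and without any other single library it called 0. At an unadjusted p below 0.05, 16 (20.5%) were higher and 5 (6.41%) lower, where the shares over all genes were 7.22% and 5.29%. Their median difference was 0.16, and 52 were positive (66.7%, against 48.4% of all genes). The active zone names among them had 12 of 13 positive, with a median of 0.38. Ppfia2 (liprin-alpha 2, an active zone organiser) had means of 97.5 ± 15.2 CPM (wild type) and 170 ± 38.4 CPM (mutant; SD, n = 4 in each group), a log2 difference of 0.80 (SE 0.171, edgeR adjusted p = 0.0869), whereas Ppfia1 had -0.30 (edgeR adjusted p = 0.291). The syntaxin-binding proteins Stxbp2 (Munc18-2) and Stxbp6 (amisyn) had 1.04 and -0.59. The endocytic GTPases Dnm1 and Dnm3 had 0.85 each, the vesicle proteins Svop and Sncb (beta-synuclein) had 0.70 and 1.06, and Doc2g, which shares 1926 exon bases with Gm49405, and Sytl2 had 0.58 and 0.83. Vamp4 and Stx2, of the remaining SNAREs, had 0.22 and -0.56.

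Some libraries stood apart from their group in ways that moved with the members. Mutant 1 was the lowest mutant library for 28 of 42 members (66.7%), against 31.0% of all genes, and wild type 6 was the lowest wild type library for 21 (50.0%), against 29.6%. Wild type 5 was lowest for a further 13 (31.0%), against 21.8%. The 5 cycling markers summed to 632, 322, 216 and 177 CPM in mutant 1 to 4 and to 867, 838, 219 and 328 CPM in wild type 5 to 8, and were thus highest in mutant 1 and wild type 5 and 6. All 5 had negative differences, with a median of -0.80, and 0 were called. Mctp1 differed from most members in wild type, where it was highest in libraries 5 and 6, as the cycling markers were. The 5 inhibitory neuron markers summed to 44.2, 102, 62.6 and 98.6 CPM in mutant 1 to 4 and to 30.5 to 57.9 CPM in wild type, all 5 with positive differences and 0 called, and Gad1 had the largest (1.14). The 6 dissociation-response genes all had negative differences, with sums of 126 to 390 CPM in mutant and 189 to 443 CPM in wild type libraries. The part of these markers in the results was not tested beyond the following fits.

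**Figure D4:**
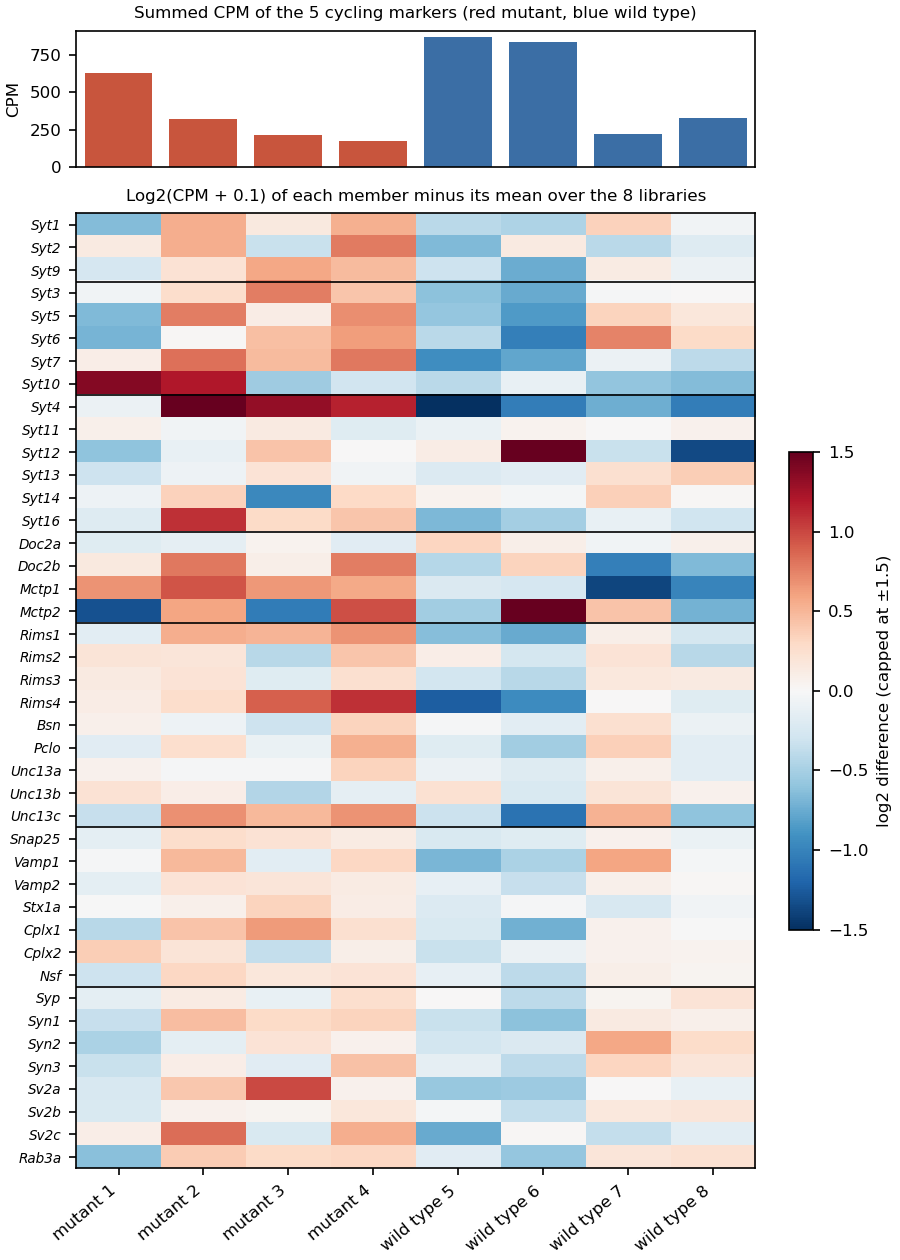
Summed CPM of the 5 cycling markers (bars, top) above a heatmap of log2(CPM + 0.1) in each library (columns) minus the mean over all 8 libraries, capped at 1.5 in either direction, for the 42 tested members (rows) by role. Mutant 1 is the lowest mutant library in 28 rows, and its cycling bar (632 CPM) is the highest of the mutant bars.

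With the mean log2 level of the cycling markers as a covariate, chosen after the data were seen, 30 of 42 members were positive. Their median was 0.13, beside -0.003 over all genes tested. In that fit 4 members rose, Mctp1 (1.67, edgeR adjusted p = 0.00083), Syt7 (0.89, 0.00775), Rims4 (0.84, 0.0309) and Rims1 (0.54, 0.0417), where 0.8% of all genes were called. Without mutant 1, wild type 5 and wild type 6, 3 members rose, Mctp1 (1.91, 0.00252), Syt4 (2.51, 0.00424) and Syt7 (0.95, 0.0328), where 0.849% of genes were called. Of 43 members, 28 were positive there, with a median of 0.23, beside 0.0095 over all genes tested. These 3 libraries have the highest cycling sums in these same data, and only wild type 7 and 8 remain in their group. Mctp1 was at 15.7 and 15.3 CPM in wild type 5 and 6, against 6.98 and 9.14 CPM in wild type 7 and 8. Leaving the higher ones out thus raises its difference by construction. Mutant 1 was the lowest mutant library for Syt4 and Syt7. Without mutant 1 alone, 6 members rose (Mctp1, Syt7, Syt4, Syt16, Rims1 and Rims4), where 2.7% of genes were called, and by DESeq2 the same 6 rose, where 2.55% were called. With 1 surrogate variable, 24 of 42 members were positive, with a median of 0.07, beside -0.004 over all genes tested. The sign held in all 20 alternatives for 24 members and turned in at least 1 for 18.

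**Figure D5:**
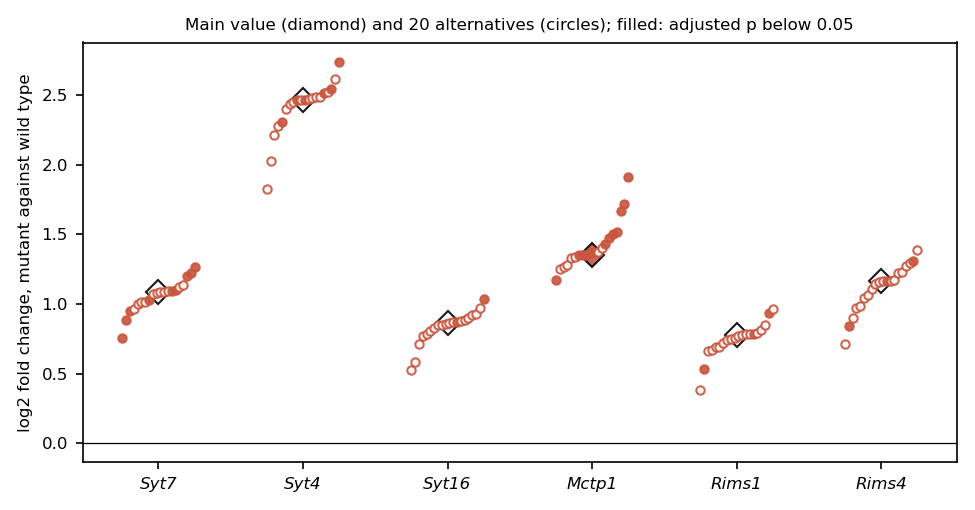
Log2 difference (mutant minus wild type) of the 6 members called in any fit, with the main value as a diamond and 20 alternatives as circles, filled where the adjusted p is below 0.05. The differences of Mctp1 run from 1.17 to 1.91 and stay above 0 in every fit shown.

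The lists of other cells were as follows, each as a summed CPM. Astrocyte and radial glia markers spanned 177 to 437 in mutant and 304 to 403 in wild type, oligodendrocyte lineage markers 69.0 to 83.9 and 66.9 to 97.5, and endothelial markers 5.25 to 13.1 and 6.66 to 19.98. Microglia markers spanned 10.8 to 16.8 and 14.8 to 21.0, with C1qa lower in the mutant (log2 difference -3.45, edgeR adjusted p = 0.0115), and Csf1r held 48.0% to 91.0% of the sum. Red blood cell markers spanned 5.13 to 6.91 and 4.63 to 10.6, with Hba-a1 and Hba-a2 at 0 in all libraries. Most of that sum was Alas2, with means of 5.63 CPM (wild type) and 5.66 CPM (mutant). The globin Hbb-bs had means of 1.02 CPM (wild type) and 0.156 CPM (mutant; log2 difference -2.49, edgeR adjusted p = 0.319). Glutamatergic markers spanned 409 to 589 in mutant and 519 to 700 in wild type, with 3 of 3 differences negative and 0 called. Atoh1 lineage markers spanned 508 to 780 and 771 to 889, with Nhlh1 called lower, and young neuron markers 3453 to 4989 and 3580 to 4213. Of the 4 young neuron markers, Sox11 (-0.51) and Igfbpl1 (-0.35) were lower at an unadjusted edgeR p below 0.05. Dcx (0.27) and Neurod1 (0.08) had positive differences, and 0 were called. The 6 pan-neuronal markers had 3 positive and 3 negative differences and 0 called. Among them Rbfox3 (0.39, edgeR adjusted p = 0.255) had its groups apart and higher in the mutant, as did 3.23% of all genes. The margin was narrow, with 109.5 CPM in mutant 2 against 107.5 CPM in wild type 7. Of the tested markers in the other lists, Slc6a5 was also apart and higher. Nhlh1, Barhl2, C1qa and P2ry12 were apart and lower, as were 2.94% of all genes. The part of these lists in the results on the members was not tested.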

How the data were processed

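Total RNA of sorted cells was sequenced in 8 libraries, 4 per group, from 2 ng of RNA with the TotalScript kit, poly-A and random primers and 14 PCR cycles, per the labels' protocols. All 8 were pooled over 3 lanes. The authors deposited raw counts per Ensembl gene with a gene width. The submitters' processing notes name mm10 and bcl2fastq 1.8.4. Aligner, counter and annotation: not given in the sources used here. Column headings name the group and a running number, which names the libraries here.

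Genes were filtered with filterByExpr, scaled by TMM and tested in R 4.3.3 with edgeR 4.0.16 (quasi-likelihood F test, robust, Benjamini-Hochberg over 19494 genes, no covariate, threshold 0.05). SE is the log2 difference divided by the square root of F. The biological coefficient of variation was 23.2%. No pair of libraries agreed within sampling noise (lowest chi-square per gene 18.2). Members and gene lists were chosen with earlier results of these data known. All members could be named, and of the companion genes the 2 per sublist with the smallest p. Motif matches and windows use RefSeq starts, and positions use GENCODE M21. Alternatives used DESeq2 1.42.0, limma 3.58.1 and sva 3.50.0. The fitting scripts were tested on simulated data. For depth, 1 count equals 0.0194 to 0.0394 CPM, and PCR copies without molecular identifiers mean that read numbers cover counting error only.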

Additional observations from a re-analysis of the deposited data

Results flagged for a closer look

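In 4 of 112 groups of 4 libraries, 1 library lay far from the other 3, where chance gives about 1 in 20. Rab3a was at 74.9 CPM in mutant 1, against 141 to 151 CPM in the other mutant libraries. Stxbp2 was at 2.32 CPM in wild type 7, against 1.44 to 1.49 CPM. Stxbp6 was at 23.1 CPM in wild type 6, against 14.4 to 15.7 CPM. Hoxb2 was at 46.6 CPM in wild type 6, against 37.4 to 38.9 CPM in the other wild type libraries.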

How the results depend on the processing

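No paired analysis was possible because the column headings run from 1 to 8 and do not carry the replicate numbers of the sample titles. Genes called numbered 70 in the main test, 214 without the low-count filter, 497 with DESeq2, 233 with limma-voom and quality weights, 171 without mutant 1, wild type 5 and wild type 6, 156 with the cycling covariate (chosen after seeing the data), and 26 to 544 when each library was left out in turn. They numbered 68 with DESeq2 size factors, 58 with upper quartile scaling, 76 with library size alone and 53 with the filter of 1 CPM in 4 libraries. Without robust dispersion there were 66, with limma-voom 69 and with 1 surrogate variable 102. Genes tested numbered 34724 without the filter, 15735 with the 1 CPM filter, 20153 without the 3 libraries and 19732 to 20195 with 1 left out. In every other fit there were 19494. Members called numbered 1 (Mctp1) in the main test, 0 with upper quartile scaling or a filter of 1 CPM in 4 libraries, 2 without the filter, without robust dispersion, with limma-voom or with 1 surrogate variable, 3 with quality weights or without the 3 libraries, 4 with the cycling covariate, 6 with DESeq2, and 0 to 6 with 1 library left out. Scaling by library size alone called Syt7 in place of Mctp1, whose adjusted p was then 0.0577. Companion genes called numbered 0 in the main test, 1 without the filter (Ppfia2), with 1 surrogate variable or with the cycling covariate (both Cadps2, named after its values were seen), 2 with quality weights or without the 3 libraries, 7 with DESeq2, and 0 to 8 with 1 library left out. Signs turned, as log2 differences, with 1 surrogate variable for Syt1 (-0.17), Syt5 (-0.14), Syt6 (-0.49), Syt11 (0.0078), Syt12 (0.38), Bsn (-0.0298), Pclo (-0.026), Vamp1 (-0.0433), Nsf (-0.052), Syp (-0.11), Syn1 (-0.0025), Syn3 (-0.27), Sv2b (-0.18) and Rab3a (-0.27). Without the 3 libraries they turned for Syt6 (-0.14), Syt12 (1.26), Mctp2 (0.54), Rims3 (-0.042), Bsn (-0.0750), Vamp1 (-0.086), Cplx2 (-0.062), Syp (-0.0301), Syn3 (-0.10) and Sv2b (-0.0749). With the cycling covariate they turned for Syt6 (-0.27), Syt11 (0.0015), Syt12 (0.086), Bsn (-0.0411), Syp (-0.0444), Syn3 (-0.18), Sv2b (-0.11) and Rab3a (-0.061). Library size alone turned Bsn (-0.0399), Syp (-0.00436), Syn3 (-0.0413) and Sv2b (-0.0439), upper quartile scaling Sv2b (-0.00207), no filter Syt11 (0.00346), limma-voom Syt12 (0.15), and quality weights Syt12 (0.31) and Mctp2 (0.28). With 1 library left out, differences spanned -0.092 to 0.12 for Bsn, -1.24 to 0.40 for Mctp2, -0.0887 to 0.0887 for Sv2b, -0.14 to 0.14 for Syn3, -0.0497 to 0.14 for Syp, -0.0583 to 0.0497 for Syt11, -1.001 to 0.54 for Syt12, -0.27 to 0.091 for Syt14 and -0.097 to 0.47 for Syt6. The cause was not tested. Scaling moved the median over all genes from -0.01 to at most -0.07. Depth limits Syt17, Syt12 and Mctp2, with under 1 CPM on average in both groups.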
